A study of Mus musculus with 6 samples.

Results

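The genes described here are 10 genes of the circadian clock, Nr1d1, Nr1d2, Dbp, Tef, Per1, Per2, Per3, Cry1, Cry2 and Ciart, chosen by symbol. All 10 were found among 15458 rows of gene counts, and all 10 passed the filter on low counts that left 13120 genes for testing. The counts came from 6 mRNA libraries of sorted Kupffer cells, which are liver macrophages, from C57BL/6 mice labelled wild type. The mice carried hepatocellular carcinoma grown from Hepa1-6, a mouse hepatoma cell line, and livers were taken on day 18 after implantation. In the 3 KC_EV libraries the tumour cells held an empty vector, and in the 3 KC_Epo libraries they overexpressed erythropoietin (Epo), the hormone of red cell formation. The sources used here do not give the promoter that drove Epo, the age of the mice or the hour at which the livers were collected. The labels number the libraries of a group but do not say that each came from its own mouse, so the p-values measure only the spread between these libraries.

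The clock is a feedback loop of transcription that runs in nearly every cell. BMAL1 (gene Arntl) and CLOCK bind E-box sequences and switch on the Per, Cry, Nr1d1, Nr1d2, Dbp, Tef and Ciart genes, whose products then act back on the loop. PER and CRY proteins and CIART repress BMAL1 and CLOCK, while REV-ERBα and REV-ERBβ, made from Nr1d1 and Nr1d2, repress Arntl itself through sites that the ROR activators also bind. DBP and TEF are activators that bind D-box sequences, where NFIL3 represses. In the liver and in macrophages these genes rise and fall over the day, with Arntl high when Nr1d1, Dbp and the Per genes are low, and REV-ERBs also bind heme and restrain inflammatory genes in macrophages.

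In KC_Epo the 2 REV-ERB genes rose, Ciart and Per1 fell, and the other 6 clock genes did not pass the test. Nr1d1 was 2.52-fold higher and Ciart 2.09-fold lower, and both are among the genes that BMAL1 and CLOCK activate. By edgeR's quasi-likelihood test with Benjamini-Hochberg adjustment and a threshold of 0.05, 4 of 10 were called, 2 higher and 2 lower. Among all genes tested 32.3% were called, 16.9% higher and 15.4% lower, so the share of clock genes called was near the background. Nr1d1 alone of the 10 was called with a rise of 1 or more on the log2 scale, as were 2.72% of all genes. The groups did not overlap for 6 of 10, against 48.3% of all genes tested. The median log2 fold change of the 10 was 0.01, against -0.0045 for all genes. The 4 calls held in each of 18 alternative analyses, which included leaving out each library in turn.

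**Figure D1:**
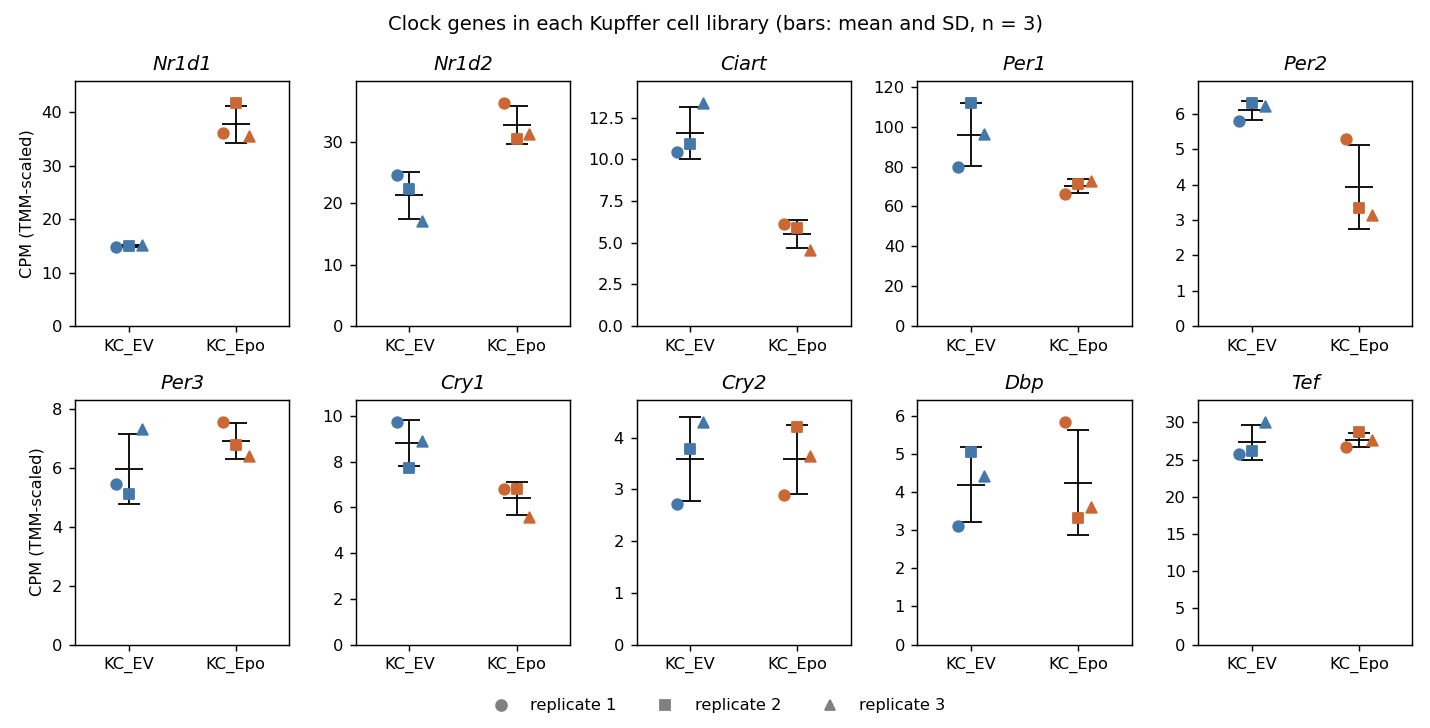
CPM (read counts scaled to library size with TMM factors) of the 10 clock genes in each library, with KC_EV in blue and KC_Epo in orange; marker shapes give the replicate, and bars the mean and SD of 3 libraries. Nr1d1 and Nr1d2 lay higher and Ciart, Per1, Per2 and Cry1 lower in every KC_Epo library than in every KC_EV library, while Per3, Cry2, Dbp and Tef overlapped.

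Nr1d1 encodes REV-ERBα, a nuclear receptor that only represses. It stood at 14.8, 15.1 and 15.1 CPM in KC_EV 1 to 3 and at 36.1, 41.7 and 35.5 CPM in KC_Epo 1 to 3. The KC_EV libraries were nearly level and every KC_Epo library lay far above them. The log2 fold change was 1.33 ± 0.10 (SE, edgeR adjusted p = 2.18e-06), and 8.50% of all genes tested had a larger one in either direction. Over the alternatives it ran from 1.17 to 1.38. In the GENCODE M21 annotation exons of Nr1d1 overlap exons of Thra, a thyroid hormone receptor gene on the other strand. The libraries were stranded, but the sources used here do not say whether the counting used the strand. Thra stood at 27.4 ± 2.02 CPM in KC_EV and at 22.3 ± 0.525 CPM in KC_Epo (SD, n = 3), a log2 fold change of -0.30 ± 0.10 with the opposite sign to that of Nr1d1. Its call (edgeR adjusted p = 0.0331) was lost with the replicate block (0.0599) and on leaving out any 1 library other than KC_EV 1 (0.0516 to 0.138).

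Nr1d2 encodes REV-ERBβ, the close relative of REV-ERBα with an overlapping role. It stood at 24.5, 22.4 and 17.1 CPM in KC_EV 1 to 3 and at 36.3, 30.5 and 31.4 CPM in KC_Epo 1 to 3. Here too the groups did not overlap, although KC_EV 3 lay well under the other KC_EV libraries. Its change on the log2 scale was 0.62 ± 0.13 (SE, edgeR adjusted p = 0.0045). Within each library the ratio of Nr1d1 to Nr1d2 counts was 0.605, 0.673 and 0.884 in KC_EV and 0.994, 1.37 and 1.13 in KC_Epo, so Nr1d1 gained on Nr1d2 in every KC_Epo library. This pair, like the other ratios between 2 of the 10 genes that involve Nr1d1 or Nr1d2, was chosen after seeing the data, and such ratios were not tested.

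Ciart encodes CIART, also called CHRONO, which binds BMAL1 and represses it. It stood at 10.4, 10.9 and 13.4 CPM in KC_EV 1 to 3 and at 6.14, 5.89 and 4.56 CPM in KC_Epo 1 to 3. Each KC_Epo library was under each KC_EV library without overlap. On the log2 scale the change was -1.06 ± 0.18 (SE, edgeR adjusted p = 0.000818), with a range of -1.22 to -0.94 over the alternatives. The ratio of Nr1d1 to Ciart counts within a library was 1.42, 1.38 and 1.13 in KC_EV and 5.87, 7.08 and 7.79 in KC_Epo. The difference on the log2 scale was 2.40, the widest of the 11 gene pairs compared. That rank followed from the choice of the pair, made after seeing the data. It sets the largest rise of the 10 genes against the largest fall.

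Per1, a repressor of the loop that also answers quickly to glucocorticoids and to cAMP, had the highest counts of the 10. It stood at 79.8, 111.8 and 96.6 CPM in KC_EV 1 to 3 and at 66.4, 71.2 and 73.0 CPM in KC_Epo 1 to 3. KC_EV 1 came nearest to the KC_Epo libraries, and the groups did not overlap. On the log2 scale Per1 changed by -0.45 ± 0.11 (SE, edgeR adjusted p = 0.00986). Without KC_EV 1 it was -0.57, and over the alternatives the adjusted p reached 0.0426.

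The upstream regions of the 4 called genes are shown because they hold the E-box, CACGTG, and related motifs to very different extents. RefSeq windows of 250 bases before the transcription start were searched on both strands for CACGTG, for the E-box-like CACGTT, for the D-boxes TTATGTAA and TTATGCAA and for AGGTCA, the core of the site that ROR and REV-ERB bind; no motif overlaps another in the windows shown. 9 of the 10 genes had an entry. Sequences run 5′ to 3′ on the strand of the gene, from build GRCm38.p6, with matches in capitals: Nr1d1 is chr11:98775378-98775627 (minus strand), Nr1d2 chr14:18239107-18239356 (minus), Ciart chr3:95882229-95882478 (minus) and the first of 2 Per1 start sites chr11:69098699-69098948 (plus).
Nr1d1: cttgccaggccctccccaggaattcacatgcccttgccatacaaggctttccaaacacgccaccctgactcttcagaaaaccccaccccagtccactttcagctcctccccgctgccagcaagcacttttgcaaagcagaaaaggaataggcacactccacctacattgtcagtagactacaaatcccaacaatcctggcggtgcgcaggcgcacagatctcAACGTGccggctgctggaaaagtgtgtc
Nr1d2: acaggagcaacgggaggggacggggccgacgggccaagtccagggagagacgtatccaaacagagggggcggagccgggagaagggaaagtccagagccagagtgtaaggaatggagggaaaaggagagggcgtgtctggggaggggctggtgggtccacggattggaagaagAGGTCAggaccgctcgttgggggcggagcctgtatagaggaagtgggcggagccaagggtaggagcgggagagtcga
Ciart: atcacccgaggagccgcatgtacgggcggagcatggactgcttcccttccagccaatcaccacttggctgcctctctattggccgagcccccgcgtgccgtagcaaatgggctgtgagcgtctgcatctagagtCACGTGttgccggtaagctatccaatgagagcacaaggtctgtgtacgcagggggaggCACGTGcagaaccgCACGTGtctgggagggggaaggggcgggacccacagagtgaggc
Per1: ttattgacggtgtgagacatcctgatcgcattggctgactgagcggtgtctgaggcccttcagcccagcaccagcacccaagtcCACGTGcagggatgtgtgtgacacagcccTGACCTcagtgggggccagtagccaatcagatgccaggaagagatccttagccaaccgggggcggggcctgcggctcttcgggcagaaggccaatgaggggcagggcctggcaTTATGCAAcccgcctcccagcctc

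Ciart held CACGTG at 3 places, 116, 58 and 44 bases upstream of the start, which 20 of 32851 RefSeq windows of this length matched or exceeded (0.0609%). Per1 held 1 CACGTG at 166 bases, 1 TTATGCAA at 24 bases and 1 AGGTCA on the other strand at 137 bases upstream, and its second start site held none of the motifs. Nr1d1 held no CACGTG in this window and 1 CACGTT on the other strand at 28 bases, and Nr1d2 held a single AGGTCA at 77 bases. Of all windows, 6.02% held CACGTG, 3.85% CACGTT, 0.694% TTATGCAA and 14.0% AGGTCA. Both Tef start sites and Cry1 also held 1 CACGTG, Cry1 and Cry2 held 1 CACGTT each, and Per3 held TTATGTAA at 2 places, which 6 of all windows did (0.0183%). Dbp held none. These are matches of letters and were not tested for binding.

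Per2 and Per3 encode the other PER repressors. Per2 stood at 5.80, 6.30 and 6.23 CPM in KC_EV 1 to 3 and at 5.30, 3.35 and 3.14 CPM in KC_Epo 1 to 3. KC_Epo 1 lay just under the KC_EV libraries and the other two KC_Epo libraries far under them. Its log2 fold change of -0.63 ± 0.24 did not pass (SE, edgeR adjusted p = 0.060), and without KC_Epo 1 it was -0.90 and passed (adjusted p = 0.00835). It also passed with upper-quartile factors (adjusted p = 0.0418) and with library sizes only (adjusted p = 0.0251). Per3 stood at 5.45, 5.12 and 7.32 CPM in KC_EV 1 to 3 and at 7.55, 6.76 and 6.38 CPM in KC_Epo, with a log2 fold change of 0.21 ± 0.20 and a 95% interval of -0.22 to 0.64. The groups overlapped, and KC_EV 3 was among the higher libraries.

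Cry1 and Cry2 encode the cryptochromes, the main repressors of BMAL1 and CLOCK. Cry1 stood at 9.74, 7.74 and 8.91 CPM in KC_EV 1 to 3 and at 6.81, 6.79 and 5.56 CPM in KC_Epo 1 to 3. The KC_Epo libraries lay under the KC_EV libraries without overlap. Its log2 fold change of -0.46 ± 0.17 did not pass (SE, edgeR adjusted p = 0.0604), and it passed with upper-quartile factors (-0.52, adjusted p = 0.0372) and with library sizes only (-0.62, adjusted p = 0.0159). Cry2 stood at 2.71, 3.77 and 4.31 CPM in KC_EV and at 2.89, 4.22 and 3.65 CPM in KC_Epo, from 80 to 146 counts a library. Its log2 fold change was -0.01 ± 0.27 with a 95% interval of -0.59 to 0.58, and KC_EV alone ran from 2.71 to 4.31 CPM.

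Dbp and Tef encode the D-box activators, of which Dbp is a classic readout of BMAL1 and CLOCK activity. Dbp stood at 3.12, 5.05 and 4.43 CPM in KC_EV 1 to 3 and at 5.85, 3.31 and 3.60 CPM in KC_Epo 1 to 3. KC_Epo 1 was the highest library and KC_EV 1 the lowest, and the groups overlapped. Between groups the log2 fold change was 0.02 ± 0.28, with a 95% interval of -0.59 to 0.64, and without KC_Epo 1 it was -0.28 (edgeR adjusted p = 0.488). The direction also changed with either upper-quartile factors or unscaled library sizes, for Dbp and for Tef. Tef stood at 25.7, 26.1 and 30.1 CPM in KC_EV and at 26.7, 28.7 and 27.6 CPM in KC_Epo. Its log2 fold change was 0.02 ± 0.10, and the narrow 95% interval of -0.19 to 0.23 leaves room for small changes only. Dbp shares exon sequence on the other strand with Sphk2, a sphingosine kinase gene with a mean of 58.7 CPM in KC_EV and 70.7 CPM in KC_Epo. Its log2 fold change was 0.27 ± 0.08 (edgeR adjusted p = 0.0214), a call lost with library sizes only (0.301), with upper-quartile factors (0.0614) and without KC_EV 3 (0.0576) or KC_Epo 3 (0.0706).

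Levels of the 10 genes were compared with each other as CPM per kb of exon, with exon lengths from GENCODE M21, which need not be the annotation the authors counted on. In KC_EV, Per1 led at 17.1 ± 2.84 CPM per kb (SD, n = 3). Ciart followed at 5.12 ± 0.693 and Nr1d1 at 4.87 ± 0.0412, which overlapped each other. Nr1d2 at 3.94 ± 0.711 and Tef at 3.47 ± 0.307 overlapped too, and Cry1 lay below them at 2.63 ± 0.302. Dbp at 1.40 ± 0.329 overlapped Per2 at 1.04 ± 0.0459, and Per3 at 0.621 ± 0.123 overlapped Cry2 at 0.569 ± 0.129. In KC_Epo, Nr1d1 at 12.3 ± 1.12 CPM per kb overlapped Per1 at 12.5 ± 0.603 at the top, while Ciart at 2.44 ± 0.376 had dropped below Nr1d2 at 6.05 ± 0.579 and Tef at 3.52 ± 0.123.

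The activators and the other repressors of the loop were read beside the 10 genes, from lists chosen with earlier results of these data known. Arntl, which encodes BMAL1, stood at 30.6, 32.4 and 30.3 CPM in KC_EV 1 to 3 and at 27.0, 30.6 and 28.8 CPM in KC_Epo 1 to 3. The groups overlapped and its log2 fold change of -0.11 ± 0.09 did not pass (edgeR adjusted p = 0.369; 95% interval -0.31 to 0.08), although it passed with library sizes only (-0.27, adjusted p = 0.031). Its partner Clock was at 0.08 ± 0.09 (adjusted p = 0.503) and Npas2, which can stand in for Clock, at -0.86 ± 0.52 with under 1 CPM in every library. Rora, an activator of Arntl, fell from 5.21 ± 0.811 to 2.65 ± 0.51 CPM, a log2 fold change of -0.98 ± 0.25 (edgeR adjusted p = 0.0107). Arntl2 and Rorb, with 9 counts or fewer in every library, were not tested.

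Of 4 repressor and D-box genes outside the 10, 3 could be tested, of which 1 rose and 2 fell. Nfil3, the repressor at D-boxes and a gene that REV-ERBα represses, stood at 15.7, 20.5 and 19.6 CPM in KC_EV 1 to 3 and at 14.4, 9.43 and 10.5 CPM in KC_Epo 1 to 3. It fell, by the test, at -0.70 ± 0.17 on the log2 scale (SE, edgeR adjusted p = 0.00816), and KC_Epo 1 lay closest to KC_EV. Bhlhe40 and Bhlhe41 encode DEC1 and DEC2, which compete at E-boxes. Bhlhe40 was at 0.25 ± 0.07 (adjusted p = 0.0204) and lost its call with upper-quartile factors (adjusted p = 0.0661), with library sizes only (0.352) and without KC_EV 1, KC_EV 3 or KC_Epo 3 (0.0509 to 0.0919). Bhlhe41 was at -1.57 ± 0.50 from 13 to 102 counts a library (adjusted p = 0.0298), and lost its call with limma-voom (0.0739) and without KC_EV 2, KC_EV 3, KC_Epo 1 or KC_Epo 3 (0.0658 to 0.134). Hlf, with 13 counts or fewer in every library, was not tested.

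**Figure D2:**
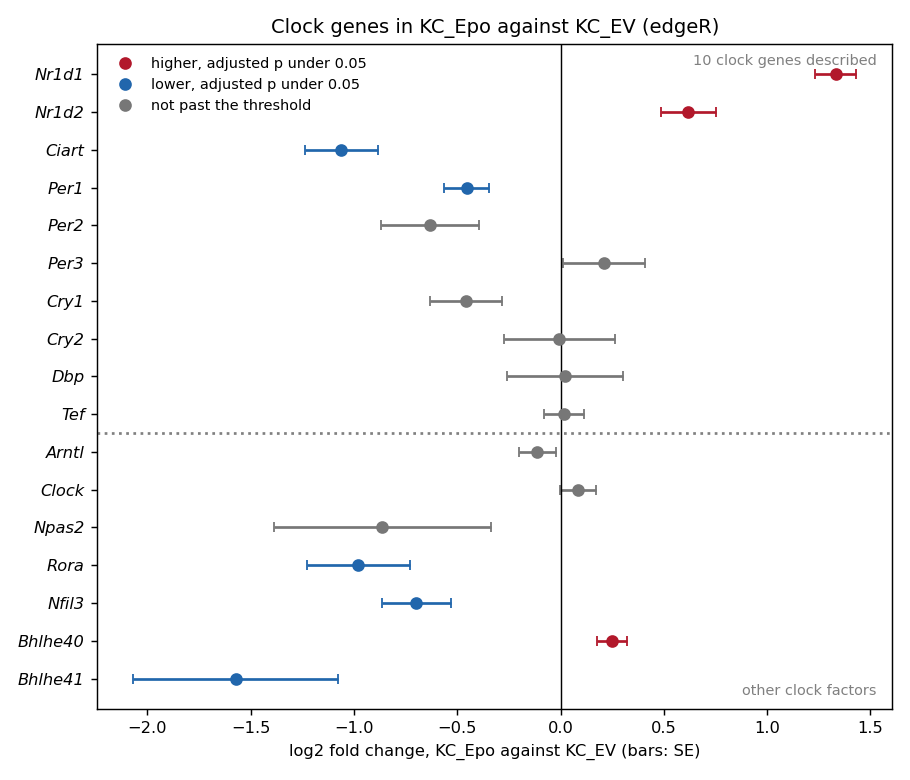
Log2 fold changes of KC_Epo against KC_EV with their SE from edgeR, for the 10 clock genes above the dotted line and other clock factors under it; red and blue mark adjusted p under 0.05 and grey the rest. Nr1d1 at 1.33 and Ciart at -1.06 lie farthest from 0 among the 10, and Arntl and Clock lie near 0.

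Ratios of 2 genes within a library do not depend on how libraries are scaled to each other, and setting a gene driven by BMAL1 against Arntl is a common reading of clock phase. The ratio of Nr1d1 to Arntl counts was 0.485, 0.464 and 0.498 across KC_EV 1 to 3 and 1.33, 1.36 and 1.23 in KC_Epo 1 to 3, with no overlap and little spread in either group. The ratio of Ciart to Arntl went the other way, at 0.341, 0.337 and 0.441 in KC_EV and 0.227, 0.192 and 0.158 in KC_Epo. Per2 to Arntl overlapped, since KC_Epo 1 at 0.196 lay among the KC_EV values of 0.189 to 0.205, with the other KC_Epo libraries both at 0.109. Dbp to Arntl overlapped as well, at 0.102 to 0.156 in KC_EV and 0.108 to 0.216 in KC_Epo. Of these 4 readings against Arntl, 1 was higher without overlap, 1 was lower without overlap and 2 overlapped.

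The remaining pairs set relatives or rivals against each other. Dbp to Nfil3, the activator and the repressor of D-boxes, was 0.199, 0.247 and 0.226 across KC_EV 1 to 3 and 0.407, 0.352 and 0.343 in KC_Epo 1 to 3, without overlap. Per1 to Per2 was 13.8 to 17.8 in KC_EV and 12.5 to 23.2 in KC_Epo, and Cry1 to Cry2 was 2.05 to 3.59 and 1.53 to 2.36, both with overlap. The ratio of Nr1d1 to Per2 was 2.39 to 2.56 in KC_EV and 6.80 to 12.5 in KC_Epo, without overlap. The hour of collection is not in the labels, so its part in any of these values was not tested.

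**Figure D3:**
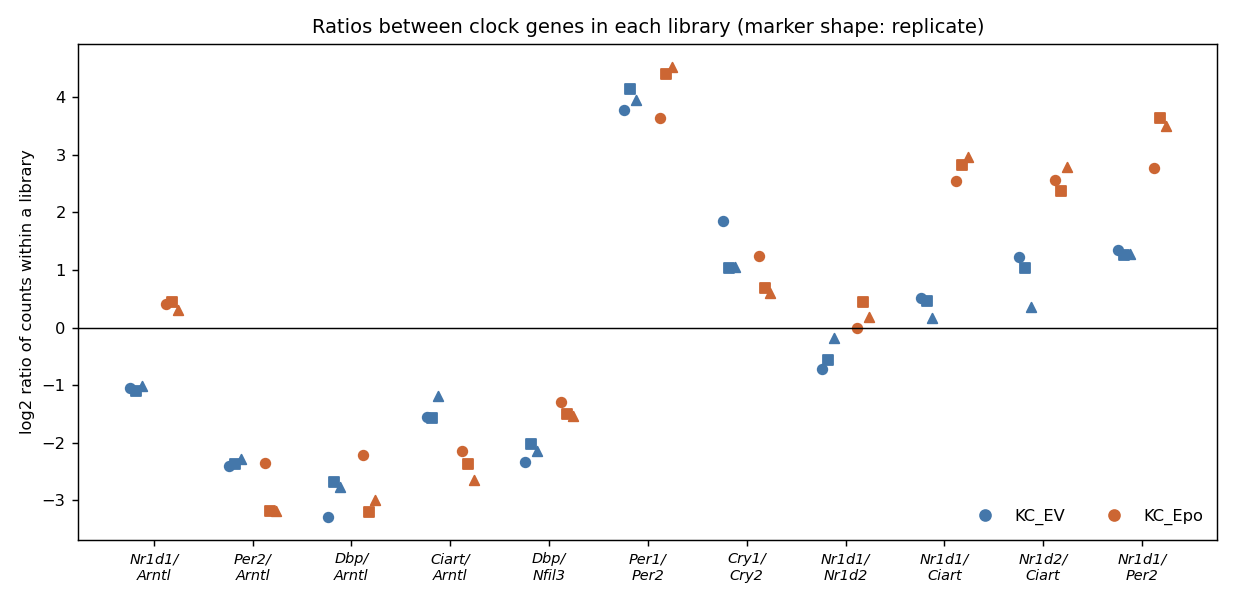
Log2 ratios of the counts of 2 genes within each library, for 11 gene pairs, with KC_EV in blue, KC_Epo in orange and marker shapes for replicates; the last 4 pairs were added after seeing the data. Nr1d1/Arntl lay near -1.05 in KC_EV and 0.39 in KC_Epo, Ciart/Arntl moved down, and Dbp/Arntl and Per2/Arntl overlapped.

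Kupffer cell markers were present in every library, with 10 of 10 listed genes in the table, and no marker in the table for any listed cell type was at 0 in a group. The summed Kupffer markers ran from 31642 to 34136 CPM in KC_EV and from 46473 to 52635 CPM in KC_Epo, with 7 of 10 genes higher and 1 lower. Hepatocyte markers rose in 10 of 12 cases and fell in 0, with sums of 2712 to 3395 CPM in KC_EV and of 21733, 6296 and 12964 CPM in KC_Epo 1 to 3. Sinusoidal endothelial markers fell in 10 of 12 cases and rose in 1, from 4853 to 5668 CPM in KC_EV to 2318 to 3093 CPM in KC_Epo. Erythroid markers rose in 8 of 8 cases, from 35.3 to 44.0 CPM in KC_EV to 608 to 1112 CPM in KC_Epo. Dendritic cell markers fell in 4 of 6 cases, with Xcr1 at -3.01 and Zbtb46 at -1.57 on the log2 scale, and rose in 1, while their sum ran from 181 to 200 CPM in KC_EV and from 176 to 186 CPM in KC_Epo. Cholangiocyte markers fell in 3 of 5 cases (28.2 to 61.5 CPM in KC_EV, 9.11 to 15.5 CPM in KC_Epo) and stellate cell markers in 2 of 6, Col1a1 and Col1a2 (83.3 to 90.7 and 23.1 to 52.4 CPM). B and plasma cell markers rose in 2 of 6 cases, Jchain and Mzb1 (157 to 175 and 192 to 198 CPM), T and NK cell markers fell in 1 of 6 tested (47.4 to 63.5 and 36.3 to 52.1 CPM), and none of 4 tested neutrophil markers passed (5.74 to 113 and 17.7 to 20.01 CPM). The part of these cell types in the clock gene values, and in those of Il1b and Mmp9, was not tested. In sorted bulk samples fewer cells of a type and less RNA per cell cannot be told apart, and hepatocytes and endothelial cells have clocks of their own.

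The hepatocyte sum was highest in KC_Epo 1 and lowest among the KC_Epo libraries in KC_Epo 2. Nr1d2, at 36.3, 30.5 and 31.4 CPM in KC_Epo 1 to 3, had the same order as the hepatocyte sum, and so did Dbp. Per2, Per3, Cry1 and Ciart were also highest among the KC_Epo libraries in KC_Epo 1. By contrast Nr1d1, Tef and Cry2 were highest in KC_Epo 2, and Per1 was highest in KC_Epo 3 and lowest in KC_Epo 1. The endothelial sum was highest in KC_Epo 1 too, at 3093 CPM against 2318 and 2595 CPM. Without KC_Epo 1 the log2 fold change was 1.37 for Nr1d1, 0.54 for Nr1d2 and -1.14 for Ciart, and all 3 passed. The part of either cell type in the values of any of the 10 genes was not tested.

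**Figure D4:**
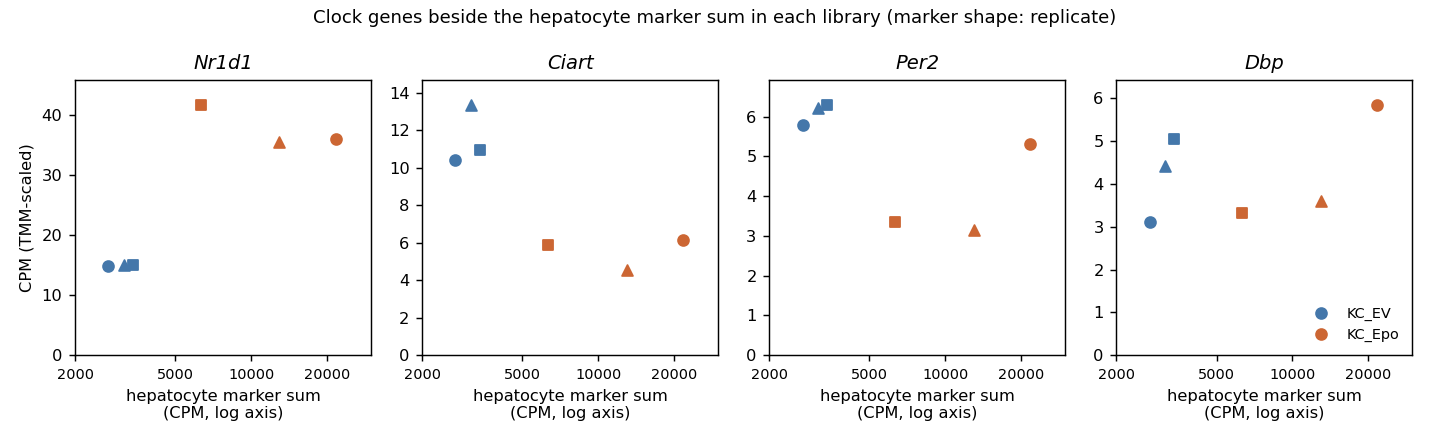
CPM of Nr1d1, Ciart, Per2 and Dbp in each library against the sum of 12 hepatocyte markers on a log axis, with KC_EV in blue, KC_Epo in orange and marker shapes for replicates. In the KC_Epo libraries, whose sums ran from 6296 to 21733 CPM, Nr1d1 lay above and Ciart below every KC_EV value; Ciart, Dbp and Per2 stood highest among the KC_Epo libraries in the one at 21733 CPM.

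Genes for enzymes that modify clock proteins or set their life were read from a further list. Gsk3b, a kinase that phosphorylates clock proteins, rose by 0.49 ± 0.07 (edgeR adjusted p = 0.000268) and Usp2, a deubiquitinase and itself a clock output, by 0.44 ± 0.11 (adjusted p = 0.0115). The call of Usp2 was lost without KC_EV 2 (adjusted p = 0.0557) and with library sizes only (0.0672). Csnk1d and Csnk1e, the casein kinases that phosphorylate PER, did not pass at -0.07 ± 0.07 and -0.17 ± 0.07, though both passed with library sizes only (adjusted p = 0.0166 and 0.00492) and Csnk1e also with upper-quartile factors (-0.23, adjusted p = 0.0305).

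Among clock output genes 13 of 14 were tested, 6 rose and 2 fell, with a median log2 fold change of 0.25. Por, the electron donor of cytochrome P450 enzymes, rose by 0.68 ± 0.07 and Klf10, a transcription factor, by 0.54 ± 0.07. Noct, nocturnin, a gene with a strong daily rhythm, rose by 0.47 ± 0.08 and Tspan4, a tetraspanin, by 0.58 ± 0.10 (edgeR adjusted p from 3.79e-05 to 0.000889 for these 4). Outside the naming rule and picked after their values were seen, the other called genes were Nampt at 0.25, Lpin1 at 0.36, Wee1, the kinase that holds back mitosis, at -0.92 and Sirt1 at -0.38 on the log2 scale. The call of Lpin1 was lost in 12 of 18 alternatives, among them RLE factors (edgeR adjusted p = 0.0502), DESeq2 (0.0558), limma-voom (0.0557), library sizes only (0.20, adjusted p = 0.233) and without KC_EV 2, KC_EV 3, KC_Epo 2 or KC_Epo 3 (0.0706 to 0.176). That of Nampt was lost in 7 of 18, with upper-quartile factors (0.0916), library sizes only (0.0872 on the log2 scale, adjusted p = 0.369), the replicate block (0.0508) and without the same 4 libraries in turn (0.0580 to 0.139). Wee1 lost its call without KC_EV 3 (0.0571) or KC_Epo 3 (0.0698), and Sirt1 without KC_Epo 3 (0.0797).

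REV-ERBα and REV-ERBβ work through the NCoR and HDAC3 corepressor and bind heme. Of the corepressor genes, Ncor1 and Hdac3 did not pass, at 0.04 ± 0.08 and 0.04 ± 0.07, with signs that flipped with upper-quartile factors and library sizes only. Of 5 genes of heme supply and breakdown 4 rose, led by Hmox1, heme oxygenase 1, at 1.90 ± 0.08, and Slc48a1, a heme transporter, at 1.57 ± 0.09. Hmox2 at 0.35 ± 0.09 and Fech, the last enzyme of heme synthesis, at 0.29 ± 0.09 lost their calls in 4 and 6 of 18 alternatives, for both among them without KC_EV 2, KC_EV 3 or KC_Epo 3 (edgeR adjusted p from 0.0546 to 0.102). Alas1, the first enzyme of heme synthesis and a clock output, did not pass at -0.14 ± 0.10 (adjusted p = 0.292).

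Of 8 macrophage genes reported as REV-ERB targets, 4 rose and 2 fell. Mmp9, a matrix protease, fell from 14.4 ± 3.35 to 4.22 ± 0.646 CPM and Il1b from 448 ± 23.5 to 183 ± 7.31 CPM. Ccl2, a monocyte attractant, rose from 81.4 ± 4.06 to 148 ± 25.9 CPM and Il18 from 92.0 ± 4.92 to 158 ± 6.09 CPM (SD, n = 3; edgeR adjusted p from 3.38e-07 to 0.000424 for these 4). The other two that rose, outside the naming rule and named after their values were seen, were Il6 at 0.40 and Nlrp3 at 0.29 on the log2 scale, and Nlrp3 lost its call without KC_EV 2 (edgeR adjusted p = 0.0727) or KC_EV 3 (0.0544). With library sizes only both lost their calls, Il6 at 0.24 (adjusted p = 0.0844) and Nlrp3 at 0.13 (adjusted p = 0.174). Cx3cr1, the fractalkine receptor, did not pass at -0.30 ± 0.18 (adjusted p = 0.231).

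Glucocorticoids and cAMP are known to act on Per1, and 2 lists of genes that answer to them were read beside it. Of 13 glucocorticoid response genes 4 rose and 3 fell, with a median of -0.10 on the log2 scale. Fkbp5, a chaperone of the glucocorticoid receptor, rose by 0.80 ± 0.09 and Dusp1, a phosphatase, by 0.34 ± 0.07, while Errfi1 had a value of -0.77 ± 0.15 and Cebpd one of -0.37 ± 0.09. Tsc22d3, a much used readout of the hormone, did not pass at -0.10 ± 0.07 (edgeR adjusted p = 0.302; 0.0114 with library sizes only). Of 12 cAMP and immediate early genes 7 rose and 4 fell. Fosb, an AP-1 subunit, rose by 1.09 ± 0.13 and Egr1 by 0.47 ± 0.07, whereas Sik1, a kinase induced by cAMP, had a value of -0.87 ± 0.12 and Btg2 one of -0.55 ± 0.07. The other two that fell, named after their values were seen, were Crem at -0.71 ± 0.15 and Nr4a2 at -0.64 ± 0.14 (edgeR adjusted p = 0.00342 and 0.00438). Fos at 0.55 ± 0.09 and Junb at 0.60 ± 0.10, also named after their values were seen, rose with smaller adjusted p (0.000553 and 0.000574).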

How the data were processed

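Values are read counts per gene, whole numbers that the authors deposited without normalization, per the file headers and the values. The submitters' processing notes name STAR 2.7.3a, HTSeq 0.11.2, Bowtie2 2.5.1, FastQC 0.11.8 and build GRCm39; the sources used here give neither their options nor the annotation. Libraries were TruSeq stranded mRNA, per the labels' protocols. Totals ran from 23201076 to 33280754 counts per library, and intervals are 95% intervals. No 2 libraries of a group looked like 1 library deposited again (chi-square of at least 6.15 per gene).

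The test was edgeR 4.0.16 in R 4.3.3, a robust quasi-likelihood fit over 13120 genes after filterByExpr and TMM scaling, with Benjamini-Hochberg adjustment at 0.05. Of 12 symbols found on 2 rows, the symbol went to the row with the larger total. SEs come from the F statistic. The procedure was tested on simulated data. Alternatives were RLE, upper-quartile and unscaled library sizes, scaling without genes of hepatocytes, erythroid cells and immunoglobulins, other filters and prior count, a non-robust fit, a replicate block, DESeq2 1.42.0, limma-voom 3.58.1, each library left out, and KC_EV 1 with KC_Epo 1 left out. The 10 genes and all lists were chosen with earlier results of these data known. Named are the 10 genes, the clock activators and repressors, and from each other list the 4 called genes with the smallest adjusted p; other names are given as context or marked as chosen after their values were seen. Some listed genes are not reported here. Promoter sequences are RefSeq's, build GRCm38.p6.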

Additional observations from a re-analysis of the deposited data

How the results depend on the processing

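The calls of Nr1d1, Nr1d2, Ciart and Per1 held under all 18 alternatives. The number of the 10 genes that were lower was 2, and 4 with either upper-quartile factors or unscaled library sizes, where Per2 and Cry1 were added. Library sizes only moved the median of all genes to -0.16 on the log2 scale, with 1193 genes higher and 3616 lower, 24.8% of calls higher against 52.4%; upper-quartile factors gave 40.6%. Leaving out 1 library gave 2728 to 4557 genes called, 1477 to 2410 higher and 1251 to 2147 lower, the lowest without KC_Epo 3.

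Values near 0 changed sign. Dbp was at -0.0397 with upper-quartile factors, -0.13 with library sizes only, -0.0014 with the replicate block and -0.47 without both KC_EV 1 and KC_Epo 1, and ran from -0.28 to 0.19 with 1 library left out. Tef was at -0.0432, -0.14 and, without both, -0.0072, with -0.0203 to 0.0964 for 1 library left out. Cry2 was at 0.0023 with no filter and 0.0047 with the replicate block, with -0.17 to 0.15 for 1 library left out. Clock was at -0.0763 with library sizes only. Ncor1 was at -0.0198 and Hdac3 at -0.0269 with upper-quartile factors, and at -0.12 and -0.12 with library sizes only. Ncor1 was at -0.018 without both KC_EV 1 and KC_Epo 1, and with 1 library left out Ncor1 ran from -0.0274 to 0.0957 and Hdac3 from -0.0044 to 0.0755. For changes of sign the cause was not tested. The labels do not say whether libraries with the same replicate number were paired. Deviations of same-numbered libraries correlated at -0.11, -0.15 and -0.04, and such correlations cannot show whether they shared a batch. The replicate block gave 3358 calls over all genes and 4 among the 10. Of the other genes named, Thra, Fech, Nampt and Lpin1 lost their calls with it. Dbp, Cry2 and Per2, at under 7 CPM, had the widest errors among the 10.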

Other observations

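Genes with the most similar pattern over the 6 libraries were sought for 4 of the clock genes among 10013 genes of at least 5 CPM, as the smallest root mean square difference between log2 CPM profiles centred on the KC_EV mean. For Nr1d1 these were Gabbr1, a GABA receptor subunit, at 0.0543, Arhgap19 at 0.0612 and Csf2rb2, a cytokine receptor chain whose reads can be shared with its near-copy Csf2rb, at 0.0728. Gabbr1 went from 83.6 to 215 CPM, Arhgap19 from 126 to 302 CPM and Csf2rb2 from 97.2 to 235 CPM. For Per1 they were Ccdc126 at 0.0466, Copz2 at 0.0619 and Sirt5 at 0.0673, and for Cry1 Cd209f at 0.0568, Slc41a1 at 0.0619 and Thap2 at 0.0626. For Dbp the nearest genes were farther off, with Ccdc191 at 0.126, Slc22a21 at 0.148 and Col9a3 at 0.148. None of these nearest genes was on the clock lists. The likeness rests on 6 libraries in 2 groups and was not tested.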
